A study of Mus musculus with 8 samples.

Results

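Dendritic cells take up antigen and present it to T cells. Described here are 10 genes by which they are recognised, taken by name from the count table: Flt3, Zbtb46, Batf3, Irf4, Irf8, Cd209a, Siglech, Ccr7, Fscn1 and Wdfy4. All 10 were among the 26930 genes of the table, and 8 had enough counts to be tested. RNA sequencing of poly(A) RNA was done on myeloid-derived suppressor cells (MDSCs), an immature population able to inhibit T cells. They were grown from marrow of C57BL/6 mice in IL-6 and GM-CSF (40 ng/ml each). From day 4 the cells received medium conditioned by TRAMP-C1, a mouse prostate tumour line, and the labels call them senescent-like. The 4 untreated libraries share all of this with the 4 treated ones, which also received Romidepsin, an inhibitor of histone deacetylases, at 0.5 µM for 6 h. The comparison asks what Romidepsin does to the transcriptome of these cells. No animal, age, sorting step or separate culture is named, so p-values reflect only how these 8 samples scatter, which may be a technical matter.

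Dendritic cells grow from bone marrow progenitors under the cytokine FLT3 ligand, and GM-CSF cultures of bone marrow are known to yield dendritic-like cells beside macrophages and granulocytes. Conventional dendritic cells divide into a cross-presenting subset, cDC1, which depends on IRF8 and BATF3, and a subset named cDC2, in which IRF4 is prominent. Plasmacytoid dendritic cells form a further branch that makes type I interferon. On maturation, dendritic cells switch on the chemokine receptor CCR7, which guides them to lymph nodes, and the actin-bundling protein fascin, encoded by Fscn1.

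Total counts were between 12996892 and 23176949 per library. Levels are given as CPM, which are gene counts relative to the library total, scaled between libraries with edgeR's TMM factors. Log2 fold changes compare Romidepsin with no treatment and carry a standard error (SE). All 11 genes of an MDSC list (among them Itgam, Arg1, S100a8 and S100a9) were tested, and none passed (4 fell with a replicate block, described next, and 3 without treated replicate 3). Of all tested genes 36.5% passed, and 20.8% fell with the block. Without treated replicate 3, 3077 of 13170 fell. Treated replicate 3 stood apart from its group: its log2 CPM correlated at a mean of 0.925 with the untreated libraries and 0.904 with the other treated ones, whereas the other treated libraries were at 0.787 to 0.875 and 0.922 to 0.945. Libraries with the same replicate number deviated together, so values from a fit with a replicate block are given where they change a call.

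The sequences before the start sites of 3 members are shown because the results turn on their values. Fscn1 fell after treatment, Irf4 was higher in every numbered pair, and Irf8 was the most abundant member. RefSeq (GRCm38.p6) start sites were at hand for 9 of the 10 members. None was at hand for Ccr7, so its window could not be shown. The start site of Zbtb46 lies well inside the gene as GENCODE annotates it, so its window is not shown either. The windows are the 250 bases before the start, 5′ to 3′ on the gene's strand, and capitals mark any match to the motifs named after them. They lie at chr5:142960105-142960354 (Fscn1, plus strand), chr13:30748983-30749232 (Irf4, plus strand) and chr8:120736108-120736357 (Irf8, plus strand). Irf8 has a second RefSeq start, whose window (chr8:120738389-120738638, not shown) held 8 CpG dinucleotides and none of the motifs.
Fscn1: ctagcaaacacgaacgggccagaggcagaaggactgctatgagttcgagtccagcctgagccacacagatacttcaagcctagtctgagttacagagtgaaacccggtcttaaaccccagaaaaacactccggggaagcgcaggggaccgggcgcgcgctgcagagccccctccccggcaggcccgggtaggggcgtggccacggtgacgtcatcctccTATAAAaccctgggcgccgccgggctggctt
Irf4: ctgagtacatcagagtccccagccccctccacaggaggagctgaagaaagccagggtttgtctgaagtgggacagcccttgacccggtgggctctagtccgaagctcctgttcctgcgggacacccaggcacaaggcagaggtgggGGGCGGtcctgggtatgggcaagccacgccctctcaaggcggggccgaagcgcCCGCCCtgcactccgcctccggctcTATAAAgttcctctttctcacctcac
Irf8: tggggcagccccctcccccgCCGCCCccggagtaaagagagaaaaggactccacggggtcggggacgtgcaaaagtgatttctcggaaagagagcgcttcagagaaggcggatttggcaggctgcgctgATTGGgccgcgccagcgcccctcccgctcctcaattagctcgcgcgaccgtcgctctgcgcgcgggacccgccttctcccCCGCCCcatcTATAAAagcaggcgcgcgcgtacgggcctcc

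The searches ran on both strands. A TATA box was taken as the letters TATAAA, the box bound by Sp1 (GC box) as the letters GGGCGG, the box bound by NF-Y as the letters CCAAT, an AP-1 motif as the letters TGANTCA and an ETS motif as the letters GAGGAAG. Longer consensus motifs with 2 free bases in the middle were searched too, for NF-kB, for a composite of the myeloid factor PU.1 with an IRF, and for the interferon-stimulated response element. Fscn1, Irf4 and Irf8 each held TATAAA on the gene's strand, which 12.4% of all 32851 such windows hold on either strand. Irf4 and Irf8 also held GC boxes (32.7% of windows), and Irf8 the NF-Y letters on the minus strand (33.8%). The number of CpG dinucleotides was 18 in Fscn1, 11 in Irf4 and 29 in the Irf8 window shown, against a median of 6 over all windows. No matches overlapped one another in these 3 windows. The NF-kB, composite, interferon response, AP-1 and ETS motifs were in none of them (1.21%, 2.3%, 2.98%, 6.75% and 10.6% of all windows).

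Ccr7 and Fscn1, the maturation and migration genes, fell after Romidepsin. None of the other 6 tested members passed in the unpaired fit. Together 2 of 8 tested members were lower and none higher, against 16.2% lower and 20.3% higher among all 12852 genes tested (36.5% in both directions). After adjustment, the DESeq2 test called 3 members lower (Ccr7, Fscn1 and Wdfy4) and none higher. Over all 12852 genes it called 2794 lower and 2814 higher. The median log2 fold change was −0.59 over the 8 members and 0.01 over all genes. With the replicate block, Irf4 and Zbtb46 also passed, as higher, so that 2 members rose and 2 fell (21.2% and 20.8% of all genes, 41.9% together). With housekeeping scaling these 2 rose and none fell (38.0% and 5.54% of all genes). In bulk RNA, fewer cells of a type and less RNA per cell cannot be told apart.

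**Figure D1:**
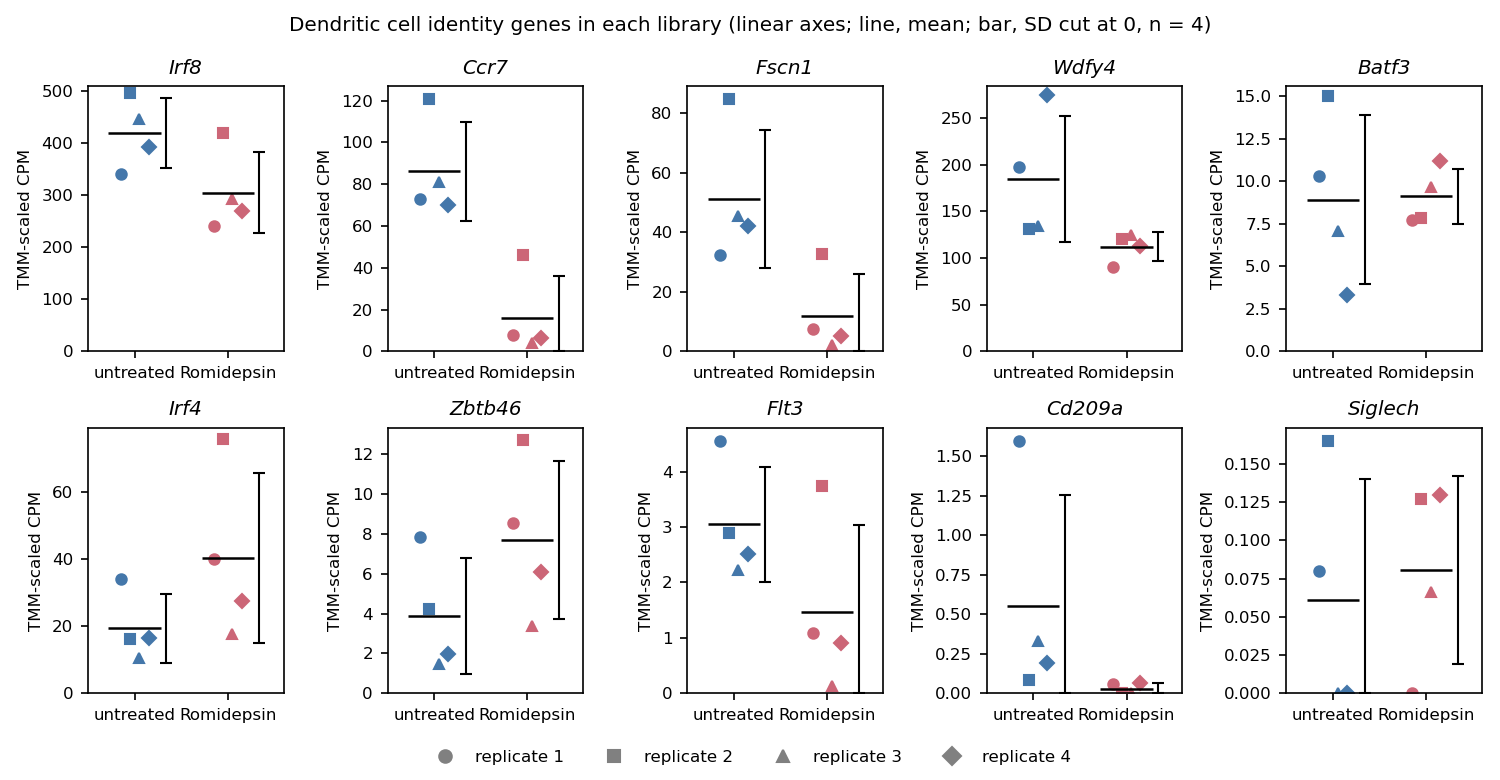
Expression of each of the 10 genes in TMM-scaled CPM (linear axis from 0) in 4 untreated (blue) and 4 Romidepsin-treated (red) libraries. The symbol gives the replicate number, the line the mean and the bar the SD, cut at 0. In Ccr7 and Fscn1, treated replicate 2 (square, 46.0 and 32.8 CPM) lies above the other 3 treated libraries.

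Ccr7 (ENSMUSG00000037944, chromosome 11, 99144196 to 99155077, GRCm38) encodes the lymph node homing receptor of mature dendritic cells, and is also known from naive T and B cells. Its level in untreated replicates 1 to 4 was 73.0, 121, 80.8 and 70 CPM. In treated replicates 1 to 4 it was 7.97, 46.0, 4.24 and 6.54 CPM. Every treated library lay below every untreated one, as for 16.5% of all tested genes, with treated replicate 2 nearest to the untreated range. The mean went from 86.2 ± 23.6 to 16.2 ± 19.9 CPM (SD, n = 4), a log2 fold change of −2.41 ± 0.71 (SE) with adjusted p = 0.0273 in edgeR's quasi-likelihood test with Benjamini-Hochberg adjustment. Without treated replicate 2 the log2 fold change was −3.78 (adjusted p = 0.00103). The call was lost without untreated replicate 2 or 3 or treated replicate 1 or 4 (adjusted p 0.0526 to 0.0687), with housekeeping scaling (0.102) and with no count filter (0.111).

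Fscn1 (ENSMUSG00000029581, chromosome 5, 142960343 to 142973185), whose product fascin bundles actin in the dendrites of mature cells, had a like profile. Untreated replicates 1 to 4 held 32.5, 85.0, 45.6 and 42.1 CPM. The treated ones held 7.40, 32.8, 2.32 and 5.18 CPM. The groups overlapped only through treated replicate 2, which lay just above untreated replicate 1. Fscn1 fell from 51.3 ± 23.1 to 11.9 ± 14.1 CPM (SD, n = 4; log2 fold change −2.10 ± 0.73, edgeR adjusted p = 0.0484), and to −3.36 without treated replicate 2 (adjusted p = 0.00442). Its p lay close to the threshold. The call was lost when any 1 library other than treated replicate 2 or 3 was left out (adjusted p 0.0564 to 0.113), and under 5 other settings and without both libraries of number 3. With the replicate block both genes passed, Ccr7 with adjusted p = 0.00316 and Fscn1 with 0.0047.

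Treated replicate 3, the treated library nearest to the untreated group over all genes, held the lowest Ccr7 and Fscn1 of all 8 libraries. Within the numbered pairs, the log2 difference of Ccr7 was −3.19, −1.39, −4.24 and −3.42 for numbers 1 to 4. That of Fscn1 was −2.13, −1.37, −4.28 and −3.01. In both genes the difference was largest in number 3 and smallest in number 2. Over the 8 libraries log2 CPM of the 2 genes had a Pearson r of 0.986, and of 0.971 after the group means were taken off, as a description of libraries that share 2 groups. The within-library log2 ratio of Ccr7 to Fscn1, which no scaling between libraries touches, was 0.81 ± 0.27 in untreated and 0.45 ± 0.32 in treated cells (SD, n = 4). That difference of −0.36 did not pass the exact two-sided permutation test (p = 0.171, adjusted over 5 ratios 0.171).

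**Figure D2:**
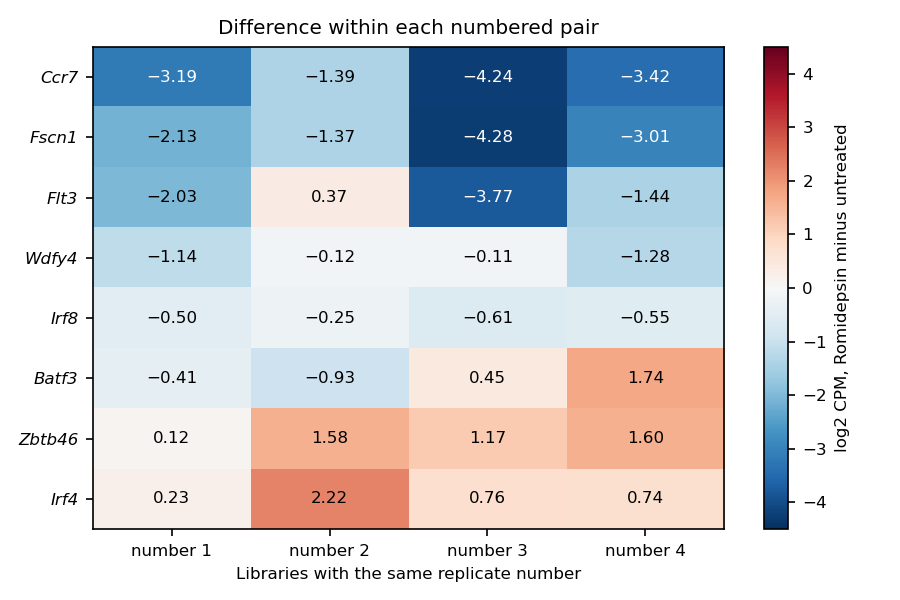
Difference in log2 CPM between the treated and the untreated library of each replicate number (columns) for the 8 tested members (rows). Blue marks lower and red higher in the treated library. Ccr7 and Fscn1 are lower in all 4 pairs, from −4.28 to −1.37, and Irf4 and Zbtb46 higher in all 4, from 0.12 to 2.22.

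Among 8845 genes averaging 10 CPM or more, Il4i1 (r = 0.992) and Pax5 (r = 0.981) had the profile most like that of Ccr7, and the same 2 genes headed the list for Fscn1 (r = 0.984 and 0.976). Il4i1 encodes an amino acid oxidase found in mature dendritic cells and B cells, and Pax5 the transcription factor that maintains B cell identity. In GENCODE, 3423 of the 4080 exon bases of Il4i1 overlap exons on the other strand. The strand setting of the counts is not given, so reads of those exons may be among its counts. Il4i1 held 51.1, 81.7, 49.1 and 34.9 CPM in untreated and 8.20, 31.2, 3.51 and 4.79 CPM in treated replicates 1 to 4. Pax5 held 14.3, 35.5, 22.2 and 14.2 CPM, and then 3.5, 12.3, 2.65 and 3.56 CPM. Both fell (log2 fold change −2.18 ± 0.65 and −1.97 ± 0.53, edgeR adjusted p = 0.0295 and 0.0206), and replicate 2 was the highest of its group for each.

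Several markers of B cells thus moved beside Ccr7 and Fscn1. Of 11 B cell markers 8 were tested, of which 5 fell and the other 3 did not pass, against 16.2% lower among all genes. With the block 7 fell (20.8% of all genes), as did 7 without treated replicate 2 (1323 of all 13044 genes). Without both libraries of number 3, 2 fell (2499 of all 13035 genes), as did 2 with housekeeping scaling (5.54%). Of those that did not pass, Ebf1 went the other way, higher in 3 of 4 pairs (log2 fold change 0.51 ± 0.64, edgeR adjusted p = 0.545). Ighm made up most of the mean summed level of the 11 markers, with 331 of 510 CPM in untreated and 125 of 170 CPM in treated cells. It did not pass (edgeR adjusted p = 0.234, and 0.0188 with the block). The summed level was 299, 966, 497 and 276 CPM in untreated replicates 1 to 4, and 34, 451, 91.5 and 104 CPM in the treated ones. Treated replicate 2 again lay highest in its group and treated replicate 1, not 3, lowest. Rag1, of early B cells, had at most 1 count in any library. T and NK cell markers summed to 9.96 to 31.2 CPM in untreated and 3.27 to 8.86 CPM in treated libraries, with Ncr1 at no more than 1 count, and 1 of 5 tested fell (none with the block or without treated replicate 2 or 3). Stromal and epithelial markers, none of 6 passing and 1 (the collagen gene Col1a1) higher with the block, summed to 202 CPM in treated replicate 2 and 25.0 to 64.2 CPM in the other treated libraries, against 12.9 to 183 CPM in untreated cells. The part of these cell types in the fall of Ccr7 and Fscn1 was not tested.

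**Figure D3:**
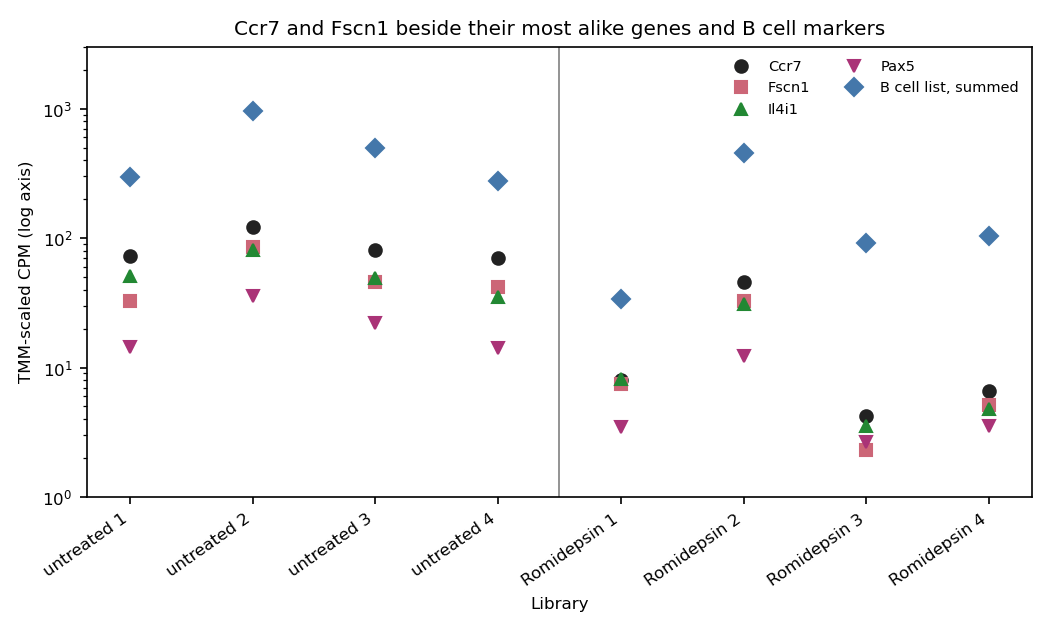
TMM-scaled CPM (log axis) of Ccr7, Fscn1, their most alike genes Il4i1 and Pax5, and the sum of 11 B cell markers in each of the 8 libraries. Ighm is the most abundant of the 11 markers. Replicate 2 is the highest point of its group for all 5 series, with Ccr7 at 121 CPM untreated and 46.0 CPM treated.

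A list of 29 other maturation and migration genes was read beside them. Of 26 tested, 11 fell and the other 15 did not pass, with a median log2 fold change of −1.08, against 16.2% lower among all genes. With the replicate block 16 fell (20.8% of all genes), and 7 fell and 2 rose with housekeeping scaling (5.54% and 38.0%). Serpinb9, an inhibitor of granzyme B, fell from 25.2 ± 10.3 to 4.61 ± 1.74 CPM (−2.45 ± 0.36, edgeR adjusted p = 0.00229). Pdcd1lg2, which encodes the checkpoint ligand PD-L2, fell from 5.94 ± 2.12 to 1.11 ± 0.251 CPM, and Birc3, an inhibitor of apoptosis induced by NF-kB, from 165 ± 33.5 to 60.0 ± 29.3 CPM. Marcksl1, a substrate of protein kinase C, was at 244 ± 27.5 and 198 ± 58.1 CPM and did not pass (adjusted p = 0.321). Of the costimulatory genes, Cd86 was at 65.8 and 100 CPM and Cd40 at 8.77 and 8.80 CPM. Cd80 was at 21.6 and 12.7 CPM and lower in 4 of 4 pairs (log2 fold change −0.77 ± 0.33). None of them passed (edgeR adjusted p = 0.143, 0.988 and 0.09), and all were named after their values were seen.

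Irf8 (ENSMUSG00000041515, chromosome 8, 120736358 to 120756694) encodes the transcription factor on which cDC1 depend, which monocytes and B cells also use. In untreated replicates 1 to 4 it was at 341, 496, 446 and 392 CPM, and in treated ones at 241, 418, 292 and 269 CPM. It was lower in 4 of 4 pairs, by 0.25 to 0.61 on the log2 scale, but the groups overlapped, since treated replicate 2 lay above untreated replicates 1 and 4. The log2 fold change of −0.46 ± 0.23 did not pass (edgeR adjusted p = 0.14). With housekeeping scaling it was 0.28. The genes most like Irf8 were the B cell genes Ms4a1, encoding CD20 (r = 0.983), and Cd79a, part of the B cell receptor (r = 0.95).

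Irf4 (ENSMUSG00000021356, chromosome 13, 30749226 to 30766976), the related factor of cDC2 and of plasma cells, went the other way in every pair. Untreated replicates 1 to 4 held 34.1, 16.3, 10.5 and 16.4 CPM, and treated ones 40.1, 75.7, 17.8 and 27.4 CPM. Untreated replicate 1 lay within the treated range and treated replicate 2 far above the rest. Irf4 was at 19.3 ± 10.2 and 40.3 ± 25.3 CPM (SD, n = 4). The log2 fold change of 1.06 ± 0.48 did not pass in the unpaired edgeR fit (adjusted p = 0.111). It passed with the replicate block (0.97 ± 0.32, adjusted p = 0.0434), without untreated replicate 1 (1.46, adjusted p = 0.0449), without treated replicate 3 (1.27, 0.04) and with housekeeping scaling (1.85, 0.0233). Without treated replicate 2 it was 0.56 (adjusted p = 0.329). Its most alike genes were Pola1, the catalytic subunit of the DNA polymerase that primes replication (r = 0.991), and Emd, of the inner nuclear membrane (r = 0.975).

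Measured within each library, the log2 ratio of Irf4 to Irf8 was −3.32, −4.93, −5.40 and −4.57 in untreated replicates 1 to 4. In treated replicates it was −2.58, −2.46, −4.03 and −3.29. The balance was shifted towards Irf4 in 4 of 4 pairs, while untreated replicate 1 lay among the treated values. The means differed by 1.46 (two-sided exact permutation p = 0.0571, adjusted over the 5 ratios 0.143), which did not pass. The smallest p that 4 against 4 libraries allow is 0.0286.

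Batf3 (ENSMUSG00000026630, chromosome 1, 191097847 to 191108945) encodes the partner factor that keeps IRF8 expressed in cDC1. It stood at 10.3, 15.03, 7.07 and 3.34 CPM in untreated and 7.74, 7.88, 9.66 and 11.2 CPM in treated replicates 1 to 4. The treated values lay within the untreated range, and 2 pairs were higher and 2 lower. The log2 fold change was 0.03 ± 0.41 (edgeR adjusted p = 0.955), an error that leaves a change of either sign possible. The within-library ratio of Batf3 to Irf8 differed by 0.69 between the groups and did not pass (exact permutation p = 0.171, adjusted 0.171). Snhg12, a small nucleolar RNA host gene (r = 0.986), and Sdf2l1, an endoplasmic reticulum stress gene (r = 0.984), were most like Batf3.

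Wdfy4 (ENSMUSG00000051506, chromosome 14, 32959547 to 33185508), needed by cDC1 for cross-presentation, held 198, 131, 135 and 275 CPM in untreated replicates 1 to 4. In treated replicates it held 90.0, 121, 125 and 113 CPM. Every treated library lay below every untreated one, as for 16.5% of all tested genes, though treated replicates 2 and 3 lay close to untreated replicates 2 and 3. Within the numbered pairs the log2 difference was −1.135, −0.124, −0.107 and −1.282 for numbers 1 to 4. The log2 fold change of −0.72 ± 0.26 just missed the threshold (edgeR adjusted p = 0.0533). It passed in 7 of 19 alternatives, among them the DESeq2 test (adjusted p = 0.0213) and the fit without treated replicate 3 (0.0425). With the replicate block it did not pass (−0.66 ± 0.26, edgeR adjusted p = 0.0745), and it was at −0.12 with housekeeping scaling. Dlg1, a scaffold protein gene (r = 0.985), and Lyst, the lysosomal trafficking regulator (r = 0.971), were most like it. The latter is of the same BEACH protein family as Wdfy4.

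Flt3 (ENSMUSG00000042817, chromosome 5, 147330741 to 147400489), the receptor of the cytokine that drives dendritic cell development, was scarce. Untreated replicates 1 to 4 had 57, 35, 27 and 52 counts (4.56, 2.89, 2.22 and 2.51 CPM), and treated replicates had 19, 59, 2 and 14 counts (1.09, 3.75, 0.132 and 0.906 CPM). Treated replicate 2 lay within the untreated range and the other 3 treated libraries below it. The log2 fold change of −1.04 ± 0.73 did not pass (edgeR adjusted p = 0.277). Without treated replicate 2 it was −2.07 and passed (adjusted p = 0.0433). Again treated replicate 3 was the lowest of all, as for Ccr7 and Fscn1. Ccl22, a chemokine of mature dendritic cells (r = 0.924), and Gne, of sialic acid synthesis (r = 0.93), were most like Flt3. Treated replicate 3 held 8.08 CPM of Ccl22 and the other treated libraries 26.3 to 147 CPM.

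Zbtb46 (ENSMUSG00000027583, chromosome 2, 181387762 to 181459426) encodes a zinc finger factor found in conventional dendritic cells but not in most other myeloid cells. Its levels were 7.83, 4.21, 1.48 and 1.98 CPM in untreated and 8.55, 12.7, 3.38 and 6.08 CPM in treated replicates 1 to 4. Each treated library was above its untreated partner, by 0.12 to 1.6 on the log2 scale, while the groups overlapped. Unpaired, the log2 fold change of 0.99 ± 0.58 did not pass (edgeR adjusted p = 0.196). It passed with the replicate block (1.12 ± 0.34, adjusted p = 0.0322) and with housekeeping scaling (1.80, 0.041). Dtl (r = 0.973) and Racgap1 (r = 0.972), genes of DNA replication control and of cytokinesis, were most like it.

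The within-library log2 ratio of Zbtb46 to Flt3 was 0.78, 0.54, −0.57 and −0.34 in untreated replicates 1 to 4. In treated replicates it was 2.94, 1.75, 4.37 and 2.70. All treated values lay above all untreated ones, and the means differed by 2.84 (two-sided exact permutation p = 0.0286, the smallest these groups allow). Adjusted over the 5 ratios, p was 0.143 and did not pass.

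Cd209a and Siglech, surface lectins of monocyte-derived and of plasmacytoid dendritic cells, failed the count filter. Cd209a (chromosome 8, 3743397 to 3748984) had 20, 1, 4 and 4 counts in untreated and 1, 0, 0 and 1 counts in treated replicates 1 to 4. Most of its counts came from untreated replicate 1. Tested with no count filter, it was lower with edgeR adjusted p = 0.0213. Siglech (chromosome 7, 55768178 to 55778925) had 1, 2, 0 and 0 counts in untreated and 0, 2, 1 and 2 counts in treated replicates, which allows no comparison at this depth. The within-library log2 ratio of Cd209a to Siglech rests on these counts and did not pass (difference −3.11, exact permutation p = 0.0857, adjusted 0.143).

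**Figure D4:**
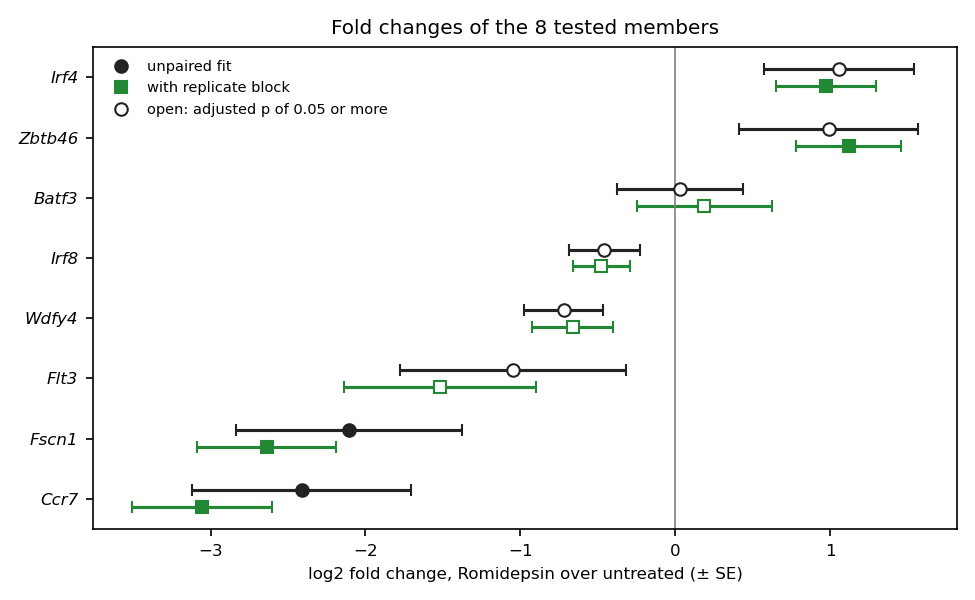
Log2 fold change (Romidepsin over untreated) with its SE for the 8 tested members, in the unpaired fit (black circles) and with the replicate block (green squares). Open symbols have an adjusted p of 0.05 or more. Ccr7 and Fscn1 are filled in both fits, Irf4 and Zbtb46 with the block alone.

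Compared per length, as CPM per kilobase of exon, the members ranged widely in untreated cells. Irf8 was highest at 59.3 ± 9.51, followed by Ccr7 at 43.6 ± 11.9, whose ranges overlapped. Wdfy4 (17.5 ± 6.41) and Fscn1 (17.0 ± 7.68) came next, below every Ccr7 value and overlapping each other. Batf3 (5.60 ± 3.11) and Irf4 (3.94 ± 2.09) overlapped too and lay below every Fscn1 value. Flt3 (0.493 ± 0.169), Zbtb46 (0.456 ± 0.34) and Cd209a (0.348 ± 0.446) could not be ordered beyond their spread, and Siglech was at 0.0181. By this level Irf8 was 912th and Zbtb46 11574th of the 12852 tested genes. In treated cells Irf8 stayed first at 43.2 ± 11.1, and Wdfy4 (10.6 ± 1.48), Irf4 (8.21 ± 5.17) and Ccr7 (8.18 ± 10.1) followed with overlapping ranges. Next came Batf3 (5.71 ± 1.03) and Fscn1 (3.96 ± 4.67), then Zbtb46 (0.902 ± 0.466) and Flt3 (0.238 ± 0.255), and each overlapped the next.

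**Figure D5:**
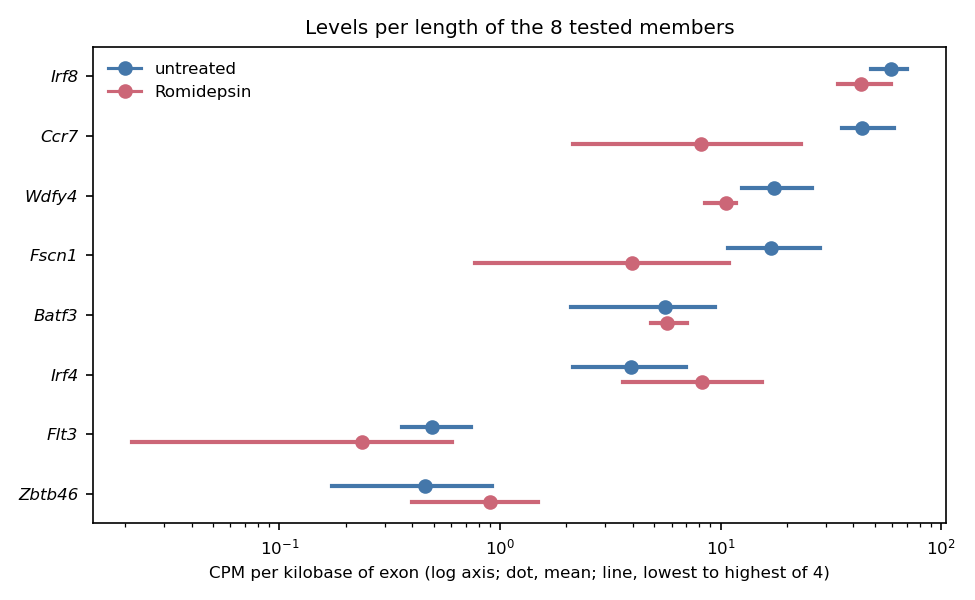
Level per length (CPM per kilobase of exon, log axis) of the 8 tested members in untreated (blue) and Romidepsin-treated (red) cells. Dots are means and lines run from the lowest to the highest of 4 libraries. The mean of Ccr7 moves from 43.6 to 8.18, while Irf8 has the highest mean in both groups, at 59.3 and 43.2. The untreated ranges of Irf8 and Ccr7 overlap.

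Further genes of dendritic cell development and of each subset were read from lists. Over all tested genes, 16.2% were lower and 20.3% higher in the unpaired fit, and 20.8% and 21.2% with the block. Of 22 development factors and receptors, all tested, 11 fell and the other 11 did not pass (median −1.0). With the replicate block 16 fell, and without treated replicate 3 17 (3077 of all 13170 genes). Without treated replicate 2, 7 fell (1323 of all 13044 genes). With housekeeping scaling 5 fell and 1 rose (5.54% and 38.0% of all genes). Gfi1, a transcriptional repressor needed by granulocytes, fell from 9.99 ± 5.65 to 1.30 ± 0.903 CPM (−2.94 ± 0.55, edgeR adjusted p = 0.0051). Cbfb, the partner of RUNX factors, fell from 105 ± 13.2 to 45.7 ± 16.3 CPM, and Irf2 from 186 ± 38.4 to 81.1 ± 30.9 CPM. The calls of Cbfb and Irf2 were lost with housekeeping scaling (adjusted p = 0.094 and 0.0751). Csf2rb, the signalling chain of the GM-CSF receptor, was at 740 ± 209 and 451 ± 88.9 CPM and did not pass (adjusted p = 0.0582). It passed with the block (0.0473).

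Of 14 other cDC1 genes 7 were tested, of which 1 rose and none fell (20.3% and 16.2% of all genes). With the block 1 rose and 3 fell (21.2% and 20.8% of all genes). Without treated replicate 3, 2 rose and 3 fell (3270 and 3077 of all 13170 genes). With housekeeping scaling 3 rose and none fell (38.0% and 5.54% of all genes). The genes that failed the count filter included Xcr1, the chemokine receptor of these cells, with 3 counts over all 8 libraries, and Clec9a, their receptor for dead cells, with 65, both chosen after their values were seen. Sept3, a septin gene and the 1 that rose in the unpaired fit, went from 0.259 ± 0.242 to 3.39 ± 2.8 CPM (3.71 ± 0.93, edgeR adjusted p = 0.0151). Untreated libraries held 0 to 0.56 CPM of Sept3 and treated ones 0.86 to 6.42 CPM. It met the count filter only through the treated libraries, so its call is no independent sign of a rise in cDC1 genes. Rab7b, a small GTPase of late endosomes, was at 229 ± 34.9 and 78.0 ± 73.9 CPM and did not pass (adjusted p = 0.0713), with 180 CPM in treated replicate 3 and 23.5 to 85.0 CPM in the other treated libraries. It passed with the block (0.0169).

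Of 16 other cDC2 and monocyte-derived dendritic cell genes 14 were tested, and 5 fell and none rose (16.2% and 20.3% of all genes). With the block 6 fell and 1 rose (20.8% and 21.2% of all genes). Without treated replicate 2, 3 fell and none rose (1323 and 1838 of all 13044 genes). Scaling by library size gave 3 lower and 1 higher (1368 and 3886 of all 12852 genes). Housekeeping scaling gave 3 lower and 2 higher (5.54% and 38.0% of all genes). The gene that rose with the block was Esam, an adhesion molecule gene, at 1.45 ± 0.548 and 3.99 ± 2.28 CPM (edgeR adjusted p = 0.052 unpaired, 0.0202 with the block), named after its values were seen. The lymphotoxin gene Ltb fell from 23.2 ± 12.1 to 1.45 ± 0.595 CPM (−3.99 ± 0.49, edgeR adjusted p = 0.00126). Sirpa, which encodes the inhibitory receptor for CD47, fell from 1650 ± 304 to 257 ± 284 CPM. Treated replicate 3 held 650 CPM of Sirpa and the other treated libraries 44.5 to 285 CPM. The lectin receptor gene Clec4a2 fell from 83.9 ± 27.4 to 21.0 ± 19.1 CPM. Clec12a, another lectin receptor gene, had a log2 fold change of −2.05 ± 1.01 and did not pass (adjusted p = 0.137; 0.0304 with the block). Sirpa and Clec4a2 lost their calls in some alternatives (adjusted p up to 0.122 and 0.136).

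Of all tested genes, 16.2% were lower in the unpaired fit, 20.8% with the block and 3077 of 13170 without treated replicate 3. Of 14 other plasmacytoid dendritic cell genes 10 were tested, and 3 fell and none rose (6 of 11 fell without treated replicate 3, 5 with the block). They were the nucleic acid sensors Tlr9 (−2.32 ± 0.61) and Tlr7 (−3.36 ± 0.97) and the surface antigen gene Ly6d, which is shared with B cell progenitors (−1.54 ± 0.51, edgeR adjusted p = 0.042). The calls of these 3 were lost in some alternatives, with adjusted p up to 0.08, 0.119 and 0.229. Irf7, the master regulator of type I interferon, was at 1030 ± 698 and 364 ± 443 CPM and did not pass (adjusted p = 0.232; 0.0067 with the block).

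Markers of other myeloid cells were read beside the members. Monocyte and macrophage markers summed to 39300 to 53800 CPM in untreated and 15800 to 36500 CPM in treated libraries. Most of the mean sum was Lyz2 (32300 and 19300 CPM). Of the 14 markers 1 fell, against 16.2% of all genes. With the block 12 fell (20.8% of all genes). Without treated replicate 3, 7 fell (3077 of all 13170 genes), and none without treated replicate 2 (1323 of all 13044). Neutrophil markers summed to 2850 to 9250 and 216 to 3490 CPM, and 5 of 12 fell, or 7 with the block. All genes of both lists had enough counts to be tested. Mast cell and basophil markers summed to 60.2 to 91.9 and 25.5 to 71.1 CPM (1 of 6 fell, none without treated replicate 2), and erythroid and megakaryocyte markers to 296 to 633 and 313 to 700 CPM (none of 3 passed, and 1 rose without treated replicate 3 or with housekeeping scaling), most of it Pf4. The 10 members themselves summed to 702 to 872 and 403 to 718 CPM. The part of these cell types in the members' values was not tested.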

How the data were processed

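The authors deposited raw read counts for Ensembl gene identifiers, as whole numbers, for 8 libraries (4 per group, from the sample titles). Per the submitters' processing notes, the authors used FastQC, STAR 2.5.2a and DESeq2 with GRCm38 (mm10). The counting tool, its annotation and its strand setting: not given in the sources used here. No member shares exon sequence with another gene in GENCODE M21. Symbols were found for 26881 of 26930 identifiers. With 12996892 to 23176949 counts per library, values near 1 CPM stand on few reads.

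Counts were tested with edgeR 4.0.16 in R 4.3.3 (filterByExpr, 12852 genes; TMM; robust two-sided quasi-likelihood F test; Benjamini-Hochberg over all tested genes, threshold 0.05), after a test on simulated data. Within-library ratios used counts plus 0.5 and all 70 splits of 4 against 4. Alternatives were 4 other scalings (1 by 20 housekeeping genes), 2 other filters, DESeq2 1.42.0, limma-voom (limma 3.58.1), non-robust dispersion, a replicate block and left-out libraries. Deviations from group means correlated at 0.518, 0.305, 0.442 and 0.196 for numbers 1 to 4 and at most at 0.0454 between numbers. As every pair exceeded 0.1, numbers were treated as pairs in the replicate block alone, a choice made from the data and not the labels. The main fit and the permutation tests of the ratios were unpaired.

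Members and lists were chosen with earlier results of these data known. Named genes were all members, per dendritic cell list up to 3 called genes of smallest p in the majority direction, 1 in the other and the most abundant uncalled one, and per tested member the 2 genes of highest Pearson r of log2 CPM. Markers of other cell types are given as counts and sums.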

Additional observations from a re-analysis of the deposited data

Results flagged for a closer look

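Each member's CPM and each within-library ratio was searched, in each group of 4 libraries, for 1 library far from the other 3. Of 30 such groups 4 held one, and chance alone gives about 1 in 20. In the treated group, replicate 2 held 46.0 CPM of Ccr7, against 4.24 to 7.97 CPM in the other treated libraries. The same library held 32.8 CPM of Fscn1, against 2.32 to 7.40 CPM. Untreated replicate 1 held 1.6 CPM of Cd209a and the other untreated libraries 0.0826 to 0.329 CPM. Untreated replicate 2 had a log2 ratio of Cd209a to Siglech of −0.74, against 3.17 to 3.77 in the others, from 1 and 2 counts.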

How the results depend on the processing

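Over all genes, 4886 were higher and 712 lower with housekeeping scaling, which moved the median log2 fold change by 0.69 and made 87.3% of calls higher, against 55.7%. With library size alone (shift 0.30) 1368 were lower and 74.0% of calls higher. Leaving out 1 library gave 1187 to 3077 lower and 1793 to 3270 higher genes, with the highest counts without treated replicate 3. Members called higher numbered 2 with the replicate block, 2 with housekeeping scaling, and 0 to 1 with 1 library left out. Members called lower numbered 0 with housekeeping scaling, 1 with library size, upper-quartile scaling or a mean of at least 10 CPM, and 0 to 3 with 1 library left out. Their number was 0 without treated replicate 1 or 4. The block moved the log2 fold changes of Zbtb46 and Irf4 to 1.12 and 0.97, and housekeeping scaling to 1.80 and 1.85, and both then passed. The block changed no other member's call. Ccr7 lost its call with housekeeping scaling (−1.51) and no count filter (−2.45). Fscn1 lost it with library size (−1.73), upper-quartile (−2.03) and housekeeping scaling (−1.19), no count filter (−2.15), a mean of at least 10 CPM (−2.10) and without both libraries of number 3 (−1.84). Wdfy4 passed with DESeq2 size factors (−0.75), the DESeq2 test (−0.75), no count filter (−0.75) and without both libraries of number 3 (−0.92). Irf8 was at 0.28 with housekeeping scaling, Marcksl1 at 0.33, and Batf3 at −0.11 without both libraries of number 3, so the sign of these 3 is not settled. With 1 library left out, the log2 fold changes ran from −2.07 to −0.70 (Flt3), 0.64 to 1.57 (Zbtb46), −0.26 to 0.39 (Batf3), 0.56 to 1.46 (Irf4), −0.64 to −0.36 (Irf8), −3.78 to −2.14 (Ccr7), −3.36 to −1.77 (Fscn1) and −0.87 to −0.48 (Wdfy4). The difference in each of the 5 ratios kept its sign with 0.1 or 1 count added and with 1 library left out. The cause of these shifts was not tested. Further list counts were added after seeing the data: from DESeq2, with number 3 removed, and with treated replicate 2 removed. Depth limits Cd209a and Siglech, with 31 and 8 counts in all, and leaves Flt3 imprecise.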
